A study of Mus musculus with 4 samples.

Results

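The 78 mitochondrial ribosomal protein genes on a mouse expression array were compared between untreated astrocyte-enriched cultures (AECs) and AECs exposed to oxygen–glucose deprivation (OGD). They were all genes whose name on the array was Mrpl or Mrps followed by a number and at most 1 letter, 78 of 29676 gene names, and they were read by 111 of 39429 probes. The rule uses the gene name and no measured value. The AECs were mixed glial cultures from the cerebral cortex of newborn ICR mice, and all of them had received PLX3397, which blocks a receptor that microglia need to survive, so that few microglia were left. RNA from untreated cultures was hybridized to 2 arrays, and RNA from cultures kept in glucose-free medium under hypoxia for 15 h to another 2. According to the study, pups were taken without regard to sex, each well held a culture of its own, and the cultures still contained oligodendrocytes.

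Mitochondria keep a small genome of their own, and its messages for core subunits of the respiratory chain are translated inside the organelle by a dedicated ribosome, the mitoribosome. Its RNA comes from mitochondrial DNA, whereas all of its proteins are encoded in the nucleus, made in the cytosol and imported. Some of these proteins descend from proteins of the bacterial ribosome, and others are found only in mitochondria. In astrocytes, which rely strongly on glycolysis, mitochondria also take part in glutamate oxidation and in calcium handling.

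Each RNA was read in a single color, as the brightness of a spot per probe after background subtraction, which is termed the processed signal (arbitrary units). All 78 members had a probe that was well above background on all 4 arrays, so none had only a bound. The processed signal of the brightest probe was lower on both OGD arrays than on both untreated arrays for all 78 members, with a median ratio of 0.455 and log2 differences from −2.96 to −0.40. Signal was lower after OGD for the array as a whole, since the 75th percentile over all probes went from 2135 and 2164 in untreated AECs to 887 and 776 under OGD. Values were therefore set relative to each array's 75th percentile, as the methods of the study did, and this is termed the normalized log2 signal. Every log2 fold change below is a difference of this quantity, OGD minus untreated, unless another scaling is named. RNA spiked into the labeling reaction at a fixed amount differed by only −0.085 on the log2 scale, and on that scale the median of all 21061 genes tested was −1.13 instead of 0.16. The labels give 200 ng of total RNA as the amount labeled for every sample, so that the signal, also with spike-in scaling, is per amount of total RNA and not per cell. In bulk RNA, fewer cells of a type and less of its RNA per cell cannot be told apart.

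At the 75th-percentile scaling, the mitochondrial ribosomal protein genes changed little relative to the other genes of the array. Of 78 members, 32 were higher after OGD and 8 were lower at an adjusted p under 0.05 (limma, Benjamini–Hochberg adjustment over 28254 probes), and 38 did not pass, while 0 were higher and 77 lower with spike-in scaling and 11 were higher and 26 lower with quantile normalization. Among all genes tested, 37.1% were called higher and 27.8% lower, 64.9% in all. These shares were 3.84% and 83.3% with spike-in scaling and 28.4% and 31.1% with quantile normalization. The share of members called higher thus lay near that of all genes with the 75th-percentile scaling and below it with quantile normalization. Without untreated replicate 1, 11 members were higher and 4 lower, against 23.1% and 17.6% of all genes, and without untreated replicate 2, 8 and 4, against 19.6% and 17.7%. A change of at least 2-fold was found for 0 members upward and for 2 downward, *Mrpl36* and *Mrpl50*, against 12.7% and 15% of all genes, 27.7% in both directions. At the 75th-percentile scaling 97.4% of the members stayed within 2-fold, compared with 71.4% of all genes, and 76.9% within 1.5-fold, compared with 46.2%. With spike-in scaling 47 members were lower by at least 2-fold, and the share of all genes was not counted there. The members are bright, with a median normalized log2 signal of 2.46 to 2.65 on the 4 arrays, where 0 is the 75th percentile. All genes tested include dim probes, and a comparison with genes of like brightness was not made. The median log2 fold change of the members was 0.24 against 0.16 for all genes, a difference of 0.076. With quantile normalization the members' median was −0.18 against −0.024 for all genes, and with spike-in scaling −1.05 against −1.13.

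The interquartile range of the members was 0.49 on the log2 scale against 1.24 for all genes. It was narrower still for the cytosolic ribosomal proteins (0.34) and the respiratory chain (0.44), so that a narrow range was not particular to the members. Among the members, 0 of the 78 fell below −1.91, the level under which 5% of all genes lay. Before the fit, both OGD arrays lay above both untreated arrays for 47 members and below them for 20, and the groups overlapped for 11, whereas 48.6% of all genes lay above and 36.2% below. The median SD between replicates was 0.041 for the untreated arrays and 0.055 for the OGD arrays. The largest was 0.48, for *Mrps35* after OGD.

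**Figure D1:**
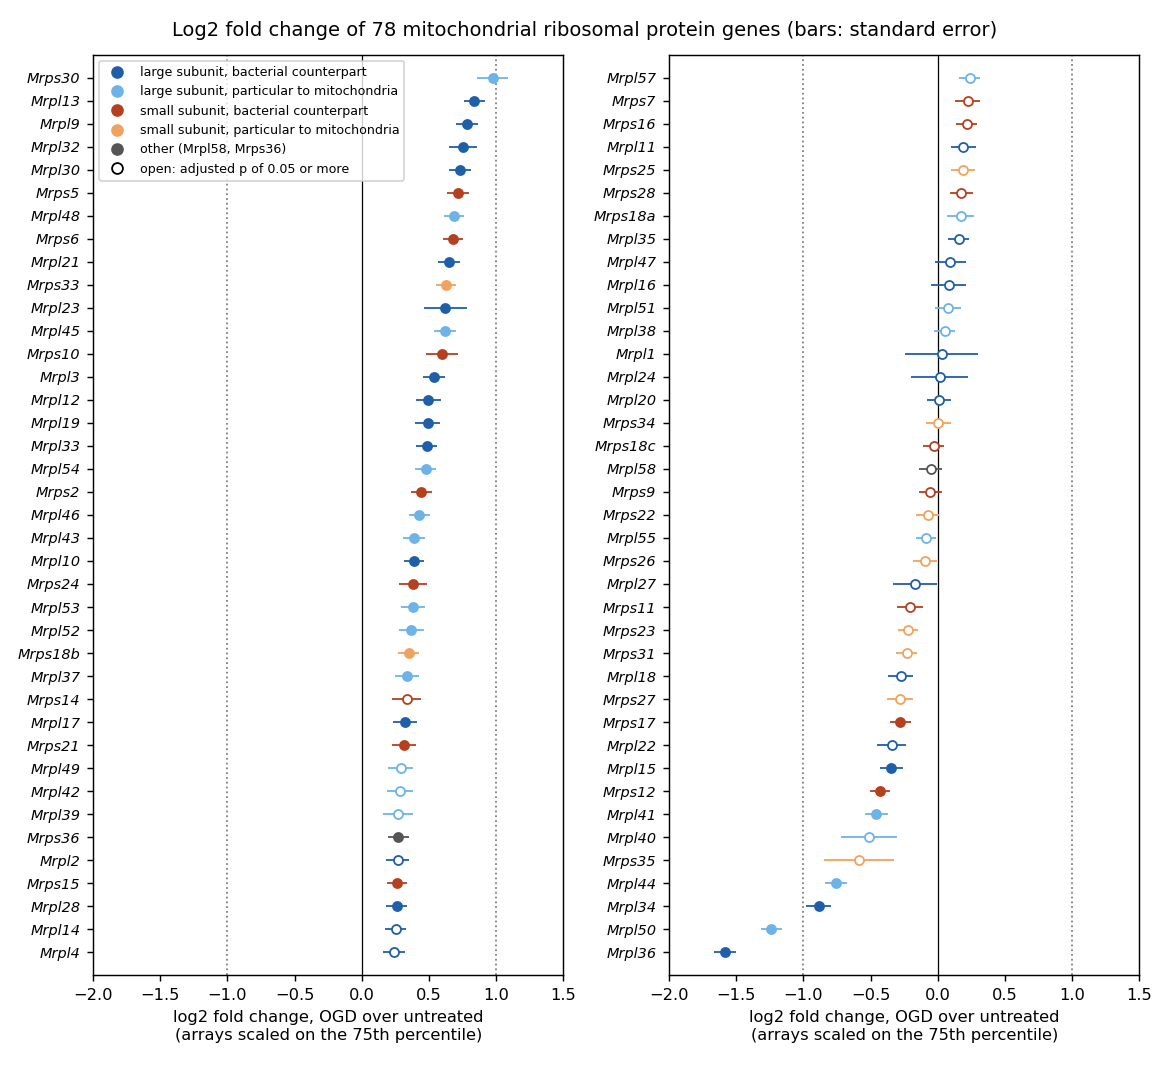
Log2 fold change (OGD over untreated, 75th-percentile scaling) of the 78 members in order of size, with bars for the standard error, colors for subunit and origin, filled points for an adjusted p under 0.05 and dotted lines at 2-fold. Only Mrpl36 and Mrpl50 lie past the dotted line on the left and no member past the one on the right; with spike-in scaling 77 of 78 were called lower and with quantile normalization 11 were called higher and 26 lower.

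The 6 highest members were 5 large-subunit proteins and 1 small-subunit protein. *Mrps30* carries a small-subunit name but encodes a large-subunit protein that is particular to mitochondria. It read 7230 and 7148 (processed signal) in untreated AECs and 5329 and 5568 under OGD, the smallest loss of signal among the brightest probes of the members (a log2 difference of −0.40, and −0.33 for the second probe of *Mrps2*). Its log2 fold change was 0.97 (SE 0.12, adjusted p = 0.0045, limma). *Mrpl13*, a large-subunit protein with a bacterial counterpart, read 21400 and 21781 against 15487 and 14319, a log2 fold change of 0.84 (SE 0.079, adjusted p = 0.0026, limma). Its replicates differed by far less than its groups, with SDs of 0.0042 and 0.056. With quantile normalization it was at 0.29 and missed the threshold (adjusted p = 0.0533, limma). For *Mrpl9*, the signal was 3967 and 4235 in untreated AECs and 2861 and 2587 after OGD, a log2 fold change of 0.78 (SE 0.080, adjusted p = 0.0031, limma).

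*Mrpl32*, a large-subunit protein that is cut to its mature form by a protease of the inner membrane after import, read 4466 and 3927 against 2887 and 2565. Its log2 fold change was 0.75 (SE 0.10, adjusted p = 0.0062, limma), and its untreated replicates were the more variable pair, with an SD of 0.14. *Mrpl30* read 11152 and 10869 against 7336 and 6786, a log2 fold change of 0.73 (SE 0.082, adjusted p = 0.0037, limma), and 0.40 with quantile normalization. *Mrps5*, the only small-subunit protein of the 6, read 1937 and 1918 against 1346 and 1113, a log2 fold change of 0.72 (SE 0.081, adjusted p = 0.0037, limma). In each of these 6 genes, which were chosen for their high values, both normalized values after OGD lay above both untreated values, as they did for 48.6% of all genes. All 6 turned negative with spike-in scaling, from −0.32 for *Mrps30* to −0.57 for *Mrps5*, and *Mrps30* was the 1 member that did not pass the test there (adjusted p = 0.059, limma).

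*Mrpl36* fell most. It encodes a very small large-subunit protein with a bacterial counterpart, and it read 22798 and 23578 in untreated AECs against 3294 and 2707 under OGD. The log2 fold change was −1.58 (SE 0.082, adjusted p = 0.0010, limma), lower than that of the next member by 0.34, and the replicate SDs were 0.020 and 0.065. *Mrpl50*, which has no bacterial counterpart, followed with a signal of 10581 and 10544 against 1887 and 1581 and a log2 fold change of −1.24 (SE 0.078, adjusted p = 0.0013, limma), although another probe of this gene read 0.10. *Mrpl34*, with a bacterial counterpart, read 10778 and 10840 against 2544 and 2003, a log2 fold change of −0.89 (SE 0.092, adjusted p = 0.0031, limma). *Mrpl44*, a large-subunit protein related to a family of RNA-cutting enzymes, read 5176 and 5138 against 1290 and 1074, a log2 fold change of −0.76 (SE 0.079, adjusted p = 0.0032, limma). In these 4 genes, which were chosen for their low values, both OGD values lay below both untreated values, as they did for 36.2% of all genes. Their fold changes had the same sign under every scaling tried.

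The other 2 of the 6 lowest values did not pass the test at the 75th-percentile scaling. *Mrps35*, a small-subunit protein, read 2703 and 2572 against 917 and 500. Its log2 fold change of −0.59 had a 95% interval of −1.32 to 0.14 (adjusted p = 0.118, limma), since the OGD arrays were apart from each other. *Mrpl40*, a large-subunit protein whose human gene lies in the region lost in DiGeorge syndrome, read 10371 and 9906 against 3537 and 2137, a log2 fold change of −0.51 with a 95% interval of −1.10 to 0.080 (adjusted p = 0.101, limma). A second *Mrpl40* probe, which overlaps the first on the transcript, gave −0.50 and passed (adjusted p = 0.0149, limma). *Mrpl40* also passed with quantile normalization (−0.72, adjusted p = 0.0340, limma), the mean over probes (adjusted p = 0.0448, limma) and the 75th percentile over probes above background on all arrays (adjusted p = 0.0493, limma). With normexp correction both genes passed (adjusted p = 0.0199 for *Mrpl40* and 0.0243 for *Mrps35*, limma), and with spike-in scaling both did at −1.80 and −1.88. Their size differed between the OGD arrays. Without OGD replicate 1, *Mrpl40* was at −0.78 and *Mrps35* at −0.93, and both passed (adjusted p = 0.0090 and 0.0069, limma), whereas without OGD replicate 2 they were at −0.24 and −0.25 and did not. The remaining members called lower were *Mrpl41* at −0.46, *Mrps12* at −0.43, *Mrpl15* at −0.35 and *Mrps17* at −0.28.

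**Figure D2:**
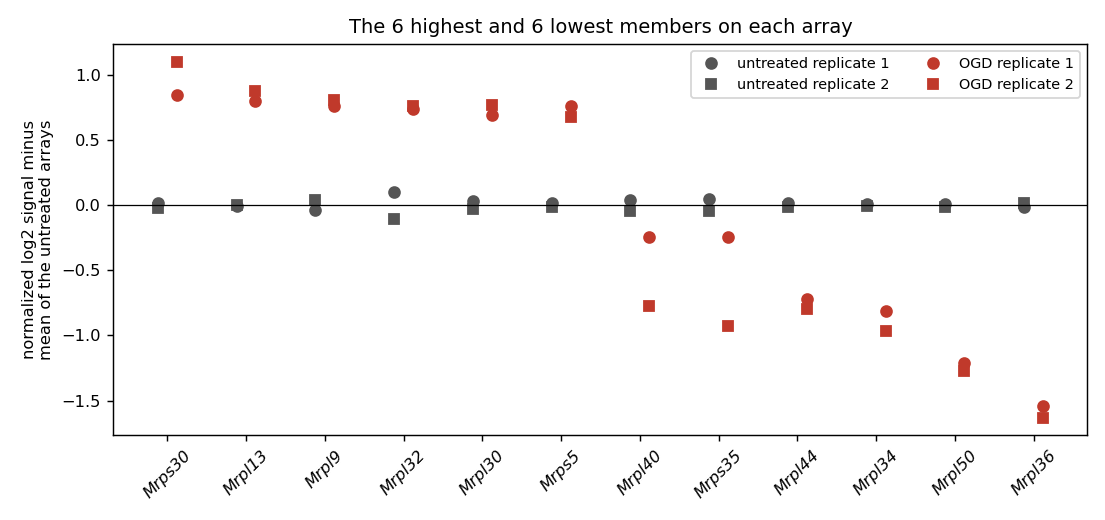
Normalized log2 signal on each of the 4 arrays, minus the mean of the untreated arrays, for the 6 highest and the 6 lowest members, with circles for replicate 1 and squares for replicate 2. The OGD arrays of Mrpl40 and Mrps35 are far apart while those of Mrpl36 and Mrpl50 nearly coincide; the 6 genes on the left lie below 0 with spike-in scaling.

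The members were sorted by subunit and origin, and the counts of each class stand beside 37.1% of all genes called higher and 27.8% called lower. Of 29 large-subunit members with a bacterial counterpart, 13 were higher and 3 lower, with a median log2 fold change of 0.25, and of 21 large-subunit members particular to mitochondria 9 were higher and 3 lower, with a median of 0.29. Of 16 small-subunit members with a bacterial counterpart, 7 were higher and 2 lower, with a median of 0.24. The 10 small-subunit members particular to mitochondria had a median of −0.085, with 2 higher (*Mrps33* at 0.63 and *Mrps18b* at 0.35) and 0 lower at the adjusted p, and the difference between classes was not tested. With quantile normalization the 4 medians were −0.015, −0.052, −0.23 and −0.31, and with spike-in scaling they lay between −1.37 and −1.0. *Mrps36* is now known as a component of the 2-oxoglutarate dehydrogenase complex and no longer counted as a ribosomal protein, and it was at 0.27 (adjusted p = 0.0443, limma). *Mrpl58*, a peptide hydrolase built into the large subunit, was at −0.054 (adjusted p = 0.62, limma).

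The stalk of the large subunit, which recruits translation factors, holds *Mrpl10* and *Mrpl12* on a base that includes *Mrpl11*. *Mrpl10* read 5050 and 5156 against 2774 and 2406, a log2 fold change of 0.39 (SE 0.074, adjusted p = 0.0140, limma). *Mrpl12*, which also binds the mitochondrial RNA polymerase, read 15120 and 16644 against 8929 and 8334, a log2 fold change of 0.49 (SE 0.092, adjusted p = 0.0132, limma). *Mrpl11* read 24464 and 23843 against 11950 and 9466, at 0.19 with a 95% interval of −0.071 to 0.45 (adjusted p = 0.146, limma), and the differences among the 3 genes were not tested. *Mrpl10* missed the threshold with the 75th percentile taken over probes above background on all arrays (adjusted p = 0.057, limma) and without either untreated array (adjusted p = 0.112 and 0.111, limma). *Mrpl12* missed it without either untreated array (adjusted p = 0.0998 and 0.0678, limma) and with quantile normalization, where it was at 0.093 (adjusted p = 0.469, limma). All 3 were negative with spike-in scaling, at −0.90, −0.79 and −1.10, and *Mrpl11* was also called lower with quantile normalization, at −0.32 (adjusted p = 0.0329, limma).

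Mammals have 3 paralogs of the bacterial protein S18, of which *Mrps18a* belongs to the large subunit and *Mrps18b* and *Mrps18c* to the small subunit. In the classes above, only *Mrps18c* was placed with the members that have a bacterial counterpart. *Mrps18a* and *Mrps18b* were placed with those particular to mitochondria, although they share this origin. *Mrps18b* read 19833 and 20380 against 10419 and 9367, a log2 fold change of 0.35 (SE 0.076, adjusted p = 0.0201, limma). *Mrps18a* read 8756 and 8955 against 4384 and 3371, at 0.17 with a 95% interval of −0.11 to 0.45 (adjusted p = 0.209, limma). *Mrps18c* read 13647 and 13804 against 5642 and 4766, at −0.031 with an interval of −0.25 to 0.18 (adjusted p = 0.739, limma). At this scaling *Mrps18b* alone of the 3 passed, and the differences among the paralogs were not tested. It missed the threshold with the replicate number as a block (adjusted p = 0.0515, limma), with the 75th percentile over probes above background on all arrays (adjusted p = 0.102, limma) and without either untreated array (adjusted p = 0.143 and 0.134, limma). Both *Mrps18a* and *Mrps18b* were negative with quantile normalization, at −0.052 and −0.12, where neither passed and *Mrps18c* did, at −0.35 (adjusted p = 0.0223, limma), and with spike-in scaling, at −1.12 and −0.94. *Mrps12*, the protein of the decoding center, read 22123 and 22773 against 6963 and 5943, a log2 fold change of −0.43 (SE 0.076, adjusted p = 0.0114, limma), the opposite sign to that of the stalk proteins at this scaling. It was at −0.86 with quantile normalization and missed the threshold without either untreated array (adjusted p = 0.0899 and 0.102, limma).

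Promoters of these genes were searched for 5 short motifs, 3 of which bind general activators of nuclear genes for mitochondria. RefSeq promoter windows of 300 bases (250 before and 50 after the transcript start, assembly GRCm38.p6) were found for 69 members in 75 windows and not for 9. The letters CCGGAAG, a core for ETS-family factors such as GABP, were present on either strand in 34.7% of the member windows and in 8.86% of all 32851 windows. CGCATGCG, the core of the nuclear respiratory factor NRF1, was present in 9.33% against 1.87%, and AAGATGGC, a YY1 motif, in 16% against 2.75%. The hypoxia response element ACGTG was present in 25.3% against 19.6%, and CACGTG, an E-box that holds the same letters, in 9.33% against 7.15%. Members with the hypoxia letters had a median log2 fold change of 0.26 (16 genes) and members without them 0.24 (53 genes), and the medians with and without the ETS letters were 0.19 (26 genes) and 0.26 (43 genes). The median of the 7 members with the NRF1 letters was 0.35, against 0.22 for the 62 without. The medians with and without the YY1 letters were 0.20 (12 genes) and 0.26 (57 genes) and with and without the E-box 0.0092 (5 genes) and 0.26 (64 genes). No test was made of any of these differences.

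Among the 6 highest and the 6 lowest genes, 10 had a window, and *Mrpl13* and *Mrps35* had none. Shown here are the 100 bases before the transcript start of 4 of these 10 genes, with the motifs that lie within that stretch in capitals. They are *Mrpl9* (chr3:94443236-94443335, plus strand), *Mrpl32* (chr13:14613038-14613137, minus strand), *Mrpl36* (chr13:73330909-73331008, plus strand) and *Mrpl34* (chr8:71464826-71464925, plus strand), each written 5′ to 3′ along the gene.
Mrpl9: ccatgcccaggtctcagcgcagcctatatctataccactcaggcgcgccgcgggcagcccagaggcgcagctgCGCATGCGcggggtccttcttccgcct
Mrpl32: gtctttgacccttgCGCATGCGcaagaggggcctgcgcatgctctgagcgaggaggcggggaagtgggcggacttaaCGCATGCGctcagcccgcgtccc
Mrpl36: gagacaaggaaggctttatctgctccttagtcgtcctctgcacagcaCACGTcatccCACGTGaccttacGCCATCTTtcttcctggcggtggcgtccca
Mrpl34: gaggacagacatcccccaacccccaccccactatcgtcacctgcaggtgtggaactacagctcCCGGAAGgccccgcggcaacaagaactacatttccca
*Mrpl9* and *Mrpl32*, which were among the highest at the 75th-percentile scaling and negative with spike-in scaling, hold the NRF1 letters, 27 bases before the start in *Mrpl9* and 86 and 23 bases before it in *Mrpl32*. *Mrpl36*, the lowest member, holds the E-box 43 bases and the YY1 letters 30 bases before its start, as well as the hypoxia letters outside the E-box. In *Mrpl34* the ETS letters lie 37 bases before the start. These matches describe the letters of the windows, and no binding was measured.

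*Mrpl46*, of the large subunit, and *Mrps11*, of the small subunit, lie head to head on chromosome 7 with 41 bases between their ends, the shortest distance between any pair of members. The stretch between them (chr7:78783090-78783130, written along the plus strand on which *Mrps11* lies) is shown because it separates the starts of both genes, and it holds none of the 5 motifs.
Mrpl46 and Mrps11: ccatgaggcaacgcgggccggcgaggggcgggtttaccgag
*Mrpl46* read 3808 and 3716 against 2097 and 1822, a log2 fold change of 0.43 with a 95% interval of 0.21 to 0.64 (adjusted p = 0.0120, limma). *Mrps11* read 2722 and 2743 against 1041 and 802, at −0.21 with an interval of −0.49 to 0.072 (adjusted p = 0.140, limma). *Mrpl46* passed the test and *Mrps11* did not, and the difference between them was not tested.

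Where a gene had several probes, they could disagree. A scaling that adds a constant to an array, such as the 75th percentile or the spiked-in RNA, cancels in the comparison of probes of the same gene, whereas quantile normalization and normexp background correction do not. For 27 members there were 32 pairs of the brightest probe with another probe, and 11 pairs, in 10 genes, differed in their response to OGD (limma on the difference, adjusted over 7193 pairs), against 44.8% of all pairs. In 8 of the 11 the other probe was the lower and in 3 the higher, whereas it was the lower in 42.7% of all called pairs. With both probes well above background on all 4 arrays, 8 of 27 member pairs were called, against 44.8% of 6126 pairs of all genes. All 11 lay on a single transcript model each, and the probe nearer the 3′ end was the lower in 9 of them and the higher in 2. Among all called pairs on a single transcript, 89.4% of 1785 had the lower response downstream, so that this order was not particular to these genes. With quantile normalization, 11 of the 32 member pairs were called, against 50.2% of all pairs. Of the 11 pairs above, 9 were then called in the same direction and all 11 kept their sign, and 5 differences moved by over 1.5 times. With normexp correction, 12 member pairs were called, against 58.7% of all pairs. Of the 11, 8 kept their sign and were called, and the 3 that turned were those of *Mrpl20* and *Mrpl48*, whose second probes are dim.

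**Figure D3:**
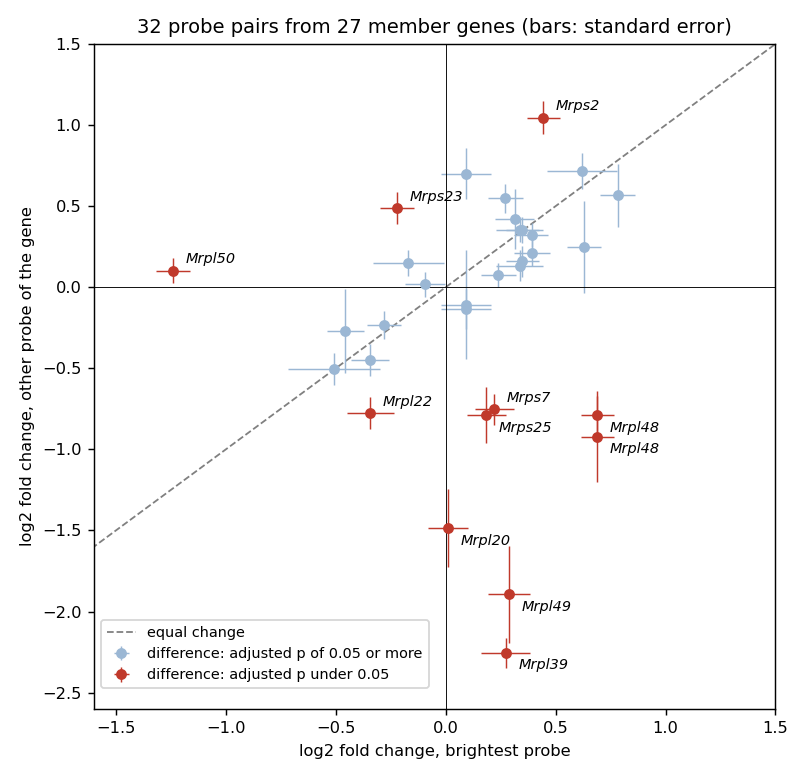
Log2 fold change of the brightest probe (horizontal) against that of another probe of the same gene (vertical) for 32 pairs in 27 members, with bars for the standard error and red for pairs whose difference passed the adjusted p. Mrpl39 and Mrpl49 lie farthest below the dashed line of equal change, and their difference from it is the same with scaling on the 75th percentile and on the spiked-in RNA.

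The start of each probe is shown for 3 genes whose called pairs were among the widest, as the first 30 of its 60 bases in the sense of the transcript, with the probe's start on the transcript and the coordinates of the whole probe on mm9, the build in the file headers. All 6 lie on minus strands.
Mrpl39 at base 1068 (chr16:84718547-84718606): gacagagaacaccgaatccacccagtagtg
Mrpl39 at base 1640 (chr16:84717975-84718034): gttctgttagatgctaccagatgctagcct
Mrpl49 at base 612 (chr19:6054680-6054739): ttaagtacttaggatgaaagggctttgaga
Mrpl49 at base 1410 (chr19:6053882-6053941): tcaccagccacatgtccaacccaccattaa
Mrpl50 at base 423 (chr4:49527089-49527148): aatgttcctgttcaagacaaatctaaattt
Mrpl50 at base 1910 (chr4:49525602-49525661): aaagttccactgtgttttactccataagta
For *Mrpl39*, which is particular to mitochondria, the upstream probe read 10936 and 10641 against 5818 and 4348, a log2 fold change of 0.27. Its downstream probe read 172 and 179 against 14.4 and 13.9, a log2 fold change of −2.26, and the difference amounted to 5.77-fold (adjusted p = 0.0012, limma), 4.77-fold with quantile normalization but 1.55-fold with normexp correction (adjusted p = 0.0109, limma). For *Mrpl49*, the upstream probe read 5228 and 5322 against 2811 and 2201 and the downstream probe 5169 and 4804 against 727 and 368. Their log2 fold changes of 0.29 and −1.90 differed by 4.54-fold (adjusted p = 0.0037, limma), 4.26-fold with quantile normalization and 4.07-fold with normexp correction. For *Mrpl50*, the upstream probe read 940 and 925 against 415 and 360, a log2 fold change of 0.10 (SE 0.076), so that the low value of this gene rested on the downstream probe, which is the brightest.

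*Mrps7* and *Mrps25*, both of the small subunit, also had called pairs. The *Mrps7* probes start at bases 1005 and 1064 and so lie end to end, and their first 30 bases are shown because probes this close on a transcript still differed. The upstream probe begins with AATAAA (in capitals), the commonest polyadenylation signal.
Mrps7 at base 1005 (chr11:115468609-115468668, plus strand): AATAAAtgttgagctcctgctgtcctgttg
Mrps7 at base 1064 (chr11:115468668-115468727, plus strand): gctgtttgtaatgcagtcttccattctgtg
The upstream probe read 20408 and 20523 against 10337 and 8207 and the downstream probe 1911 and 1924 against 443 and 436, with log2 fold changes of 0.22 and −0.75 that differed by 1.96-fold (adjusted p = 0.0086, limma) and, with quantile normalization, by 1.40-fold (adjusted p = 0.0489, limma). In *Mrps25*, the probes at bases 688 and 5992 were at 0.19 and −0.79 (adjusted p of the difference 0.0250, limma), a difference of −0.98 that was −0.52 and no longer called with quantile normalization (adjusted p = 0.126, limma).

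The letters AATAAA, read in the sense of the transcript, did not mark the called pairs of the array in general. They were present in 26 of 111 member probes (23.4%) and in 12.6% of all probes. In 4 member pairs, from 3 genes, they were in the upstream probe alone, and the downstream response was lower at the adjusted p in all 4. These include both pairs of *Mrpl48*, with dim downstream probes, whose differences turned positive with normexp correction. The pair of *Mrps25* was not called with quantile normalization. The downstream response was lower at the adjusted p in 5 of 18 member pairs without the letters upstream and in 0 of 5 with them in both probes. Among all genes the downstream response was lower at the adjusted p in 36.1% of 169 pairs with the letters in the upstream probe alone. It was so in 37.5% of 4037 pairs without the letters upstream and in 14.4% of 153 pairs with them in both probes. Use of a polyadenylation site was not measured.

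*Mrpl48*, a large-subunit protein particular to mitochondria, was the only member with 1 tested probe called higher and another called lower, and its low calls come from dim probes. Its brightest probe, at base 881, read 16277 and 16495 against 10804 and 9632, a log2 fold change of 0.69 (adjusted p = 0.0034, limma), and 0.26 with quantile normalization (adjusted p = 0.0505, limma). The probes at bases 3679 and 3815 were at −0.79 (adjusted p = 0.0078, limma) and −0.92 (adjusted p = 0.0485, limma). Both were dim, each well above background on both untreated arrays but on 1 of the 2 OGD arrays, with processed signals from 26.6 to 36.3 before and from 4.96 to 9.05 after OGD. With normexp correction their differences from the brightest probe were 0.25 and 0.27 and did not pass (adjusted p = 0.103 and 0.0568, limma). The exceptions in order were *Mrpl20* and *Mrpl22*, in which the upstream probe was the lower. In *Mrpl20* that probe read 46.7 and 41.6 in untreated AECs and was not well above background on either OGD array. It therefore had only a bound, at least 2.55-fold lower when the lowest signal well above background stood for it under OGD, while the other probe was at 0.0092. With normexp correction the upstream probe of *Mrpl20* was the higher, by 0.62 (adjusted p = 0.0069, limma). In *Mrpl22* it was at −0.78 against −0.34, a difference that did not pass with quantile normalization (−0.16, adjusted p = 0.339, limma). *Mrps2* and *Mrps23* had upstream probes at 1.05 and 0.49 and downstream probes at 0.44 and −0.22. A dim second probe of *Mrpl21* was the only member probe that was not tested, and a second *Mrps21* probe had no value on an OGD array because its spot was an outlier.

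The position of the probe did not order the brightest probes of the family as a whole. Across the 78 members, Spearman's rho of the log2 fold change with the probe's start on the transcript was −0.13, and with the mean normalized signal it was 0.16, both given as descriptions since the genes share the same 4 arrays. The 58 members whose probe started within the first 1000 bases had a median of 0.24 and the other 20 a median of 0.23.

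The mitochondrial ribosomal proteins that carry other gene names had a median log2 fold change of 0.46. Of 5, 4 were higher and 0 lower, against 37.1% and 27.8% of all genes. The 4 were *Aurkaip1* at 0.82, *Dap3*, a GTP-binding protein of the small subunit, at 0.71, *Chchd1* at 0.46 and *Gadd45gip1* at 0.36. With spike-in scaling all 5 were lower, against 83.3% of all genes. With quantile normalization 0 of the 6 genes that include *Mrpl58* were higher and 1 was lower, against 28.4% and 31.1% of all genes. *Ptcd3* was at 0.0041. Next come the factors that work with the mitoribosome. Of 18 mitochondrial translation factors, 1 was higher (*Gfm1*, an elongation factor, at 0.39) and 9 were lower, against 37.1% and 27.8% of all genes, with a median of −0.25. All 18 were lower with spike-in scaling, where 83.3% of all genes were. With quantile normalization 0 were higher and 7 lower, against 28.4% and 31.1% of all genes. The highest value, 0.41, was that of the initiation factor *Mtif2* (adjusted p = 0.196, limma), and the lowest, −1.43, that of *Gatc*, a subunit of the enzyme that makes glutaminyl-tRNA in mitochondria.

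The genes for assembling the mitoribosome and modifying its RNA had the lowest median of the lists examined. Of 27, 1 was higher and 17 were lower, 12 of them by at least 2-fold, with a median of −0.77, and the counts were 0 and 17 with quantile normalization and 0 and 27 with spike-in scaling. The counts of this paragraph stand beside 37.1% of all genes called higher and 27.8% called lower, 15% lower by at least 2-fold. These shares of higher and lower genes were 28.4% and 31.1% with quantile normalization and 3.84% and 83.3% with spike-in scaling. *Malsu1*, which docks on the large subunit during assembly, was the highest, at 0.50 (SE 0.078, adjusted p = 0.0084, limma). *Ybey*, an endoribonuclease of the small subunit, was the lowest, at −3.01 (SE 0.079, adjusted p = 0.0007, limma). Its processed signal fell from 446 and 432 to 22.1 and 19.9. Of 10 genes for mitochondrial transcription and DNA maintenance, 1 was higher (*Tfb2m* at 0.27) and 7 were lower, with a median of −0.61 and a lowest value of −1.48 for *Mterf1a*. Of 9 messages encoded in mitochondrial DNA itself, which are the templates of the mitoribosome, 5 were higher and 3 lower, from 1.14 for *ND5* to −1.42 for *ND6*, with a median of 0.45. With spike-in scaling 0 were higher and 8 lower, and with quantile normalization 1 was higher and 3 were lower.

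Among regulators of mitochondrial gene expression, 2 of 9 were higher and 4 lower, against 37.1% and 27.8% of all genes. With spike-in scaling 1 was higher and 8 were lower, against 3.84% and 83.3% of all genes. *Myc*, a general activator of growth genes, was the highest, at a log2 fold change of 3.52 (SE 0.092, adjusted p = 0.0007, limma). *Yy1*, whose motif was searched above, was at 0.69 (adjusted p = 0.0081, limma). *Nrf1* was the lowest, at −1.41 (SE 0.10, adjusted p = 0.0016, limma), and *Ppargc1a*, a coactivator of mitochondrial biogenesis, was at −1.09 (adjusted p = 0.0023, limma). *Gabpa* and *Gabpb1*, the subunits of GABP, were at −0.25 and −0.16 and did not pass.

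Genes for the cytosolic ribosome and for the respiratory chain had higher medians than the members. Of 82 cytosolic ribosomal protein genes, 72 were higher and 1 lower, 22 of them higher by at least 2-fold, and the median was 0.83 where that of the members was 0.24. Of 83 nuclear genes for the respiratory chain and ATP synthase, 57 were higher and 0 lower, with a median of 0.57. Of all genes, 37.1% were higher and 27.8% lower. At this scaling the 2 medians stood 0.67 and 0.40 above that of all genes, where the members stood 0.076 above it. With normexp correction they were 0.78 and 0.53, against 0.51 for all genes. The counts of higher and lower genes were 6 and 4 for the cytosolic ribosome and 7 and 18 for the respiratory chain with quantile normalization, against 28.4% and 31.1% of all genes. With spike-in scaling they were 0 and 58 and 1 and 77, against 3.84% and 83.3% of all genes. With quantile normalization the medians were 0.019 for cytosolic ribosomal proteins, −0.074 for the respiratory chain and −0.18 for the members, and with spike-in scaling −0.46, −0.72 and −1.05, so that the order of the 3 medians was kept under both. The median of all genes was −0.024 and −1.13 there, so that with quantile normalization the respiratory chain lay below all genes. No test of these differences was made, since members of a list are not replicates.

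**Figure D4:**
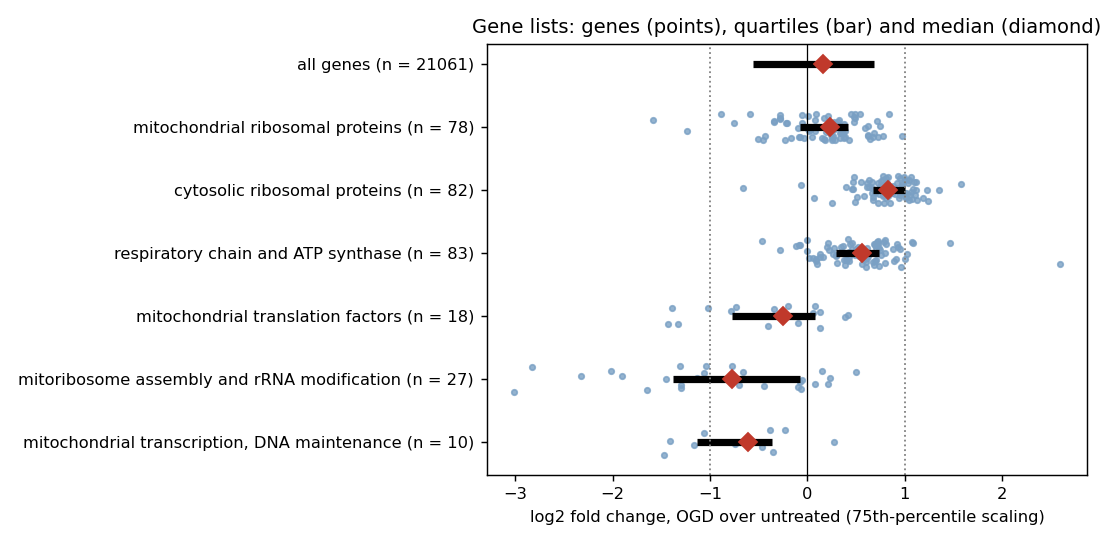
Log2 fold change (OGD over untreated, 75th-percentile scaling) of the genes in 6 lists as points, with the median as a diamond and the range between quartiles as a bar, and the quartiles and median of all genes on top. The members lie around the median of all genes, cytosolic ribosomal proteins to the right and genes for mitoribosome assembly to the left; with spike-in scaling all 7 medians are below 0.

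The choice of scaling set the direction of most members and changed their place among all genes, and the choice of probes changed that place too. The members' median lay 0.076 above that of all genes with each scaling that adds a constant per array, but 0.16 below it with quantile normalization and 0.31 below it with normexp background correction. The filter on probes moved it too, to 0.17 below without a filter on dim probes, 0.0038 above with probes above background on all 4 arrays and 0.010 above with the mean over the probes of a gene. With the normexp correction the median of all genes was 0.51 and that of the members 0.20, with 32 members called higher and 14 lower, against 60.5% and 20.8% of all genes. Of the 8 members called lower, 6 were called lower with median scaling and 8 with each of the other scalings and corrections plotted. Of the 32 called higher, 1 was called lower with quantile normalization and 31 with spike-in scaling. With 2 arrays in each group, an exact permutation test of a single gene cannot go below p = 0.333. The adjusted p of limma rests on the gene's own spread (2 residual degrees of freedom) and on the spread pooled across genes (1.85 prior degrees of freedom).

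**Figure D5:**
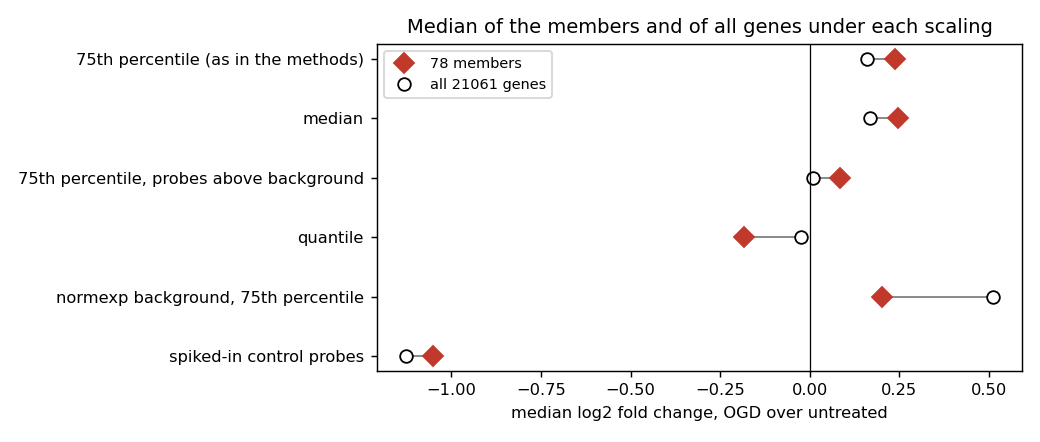
Median log2 fold change (OGD over untreated) of the 78 members (diamonds) and of all 21061 genes (circles) under 6 ways of scaling or background correction. The members' median is positive in 4 of them and negative with quantile normalization (−0.18) and with the spiked-in control probes (−1.05).

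As a check of the labels, 10 of 10 known targets of HIF-1, the transcription factor of the hypoxic response, were called higher after OGD, from 0.59 for *Ddit4* to 5.92 for *Ankrd37*, and with spike-in scaling 7 were called higher and 2 lower. Each of 10 astrocyte markers was detected above background on every array, and their summed normalized signal, on a linear scale, was 166 and 145 for untreated AECs against 217 and 221 under OGD. At the adjusted p 5 astrocyte markers were higher and 2 lower (median 0.57), but 0 and 8 with spike-in scaling (median −0.72) and 3 and 4 with quantile normalization (median −0.26). Microglia markers, of which 7 of 10 passed that limit and *C1qa* was not tested, summed to 2.36 and 2.07 before and 6.79 and 6.57 after, with *Cd68* at a log2 fold change of 3.14. Of the 9 microglia markers tested, 4 were higher, 1 was lower and 4 did not pass, with a median of 0.36. Oligodendrocyte lineage markers summed to 29.4 and 29.6 against 26.6 and 25.7 (9 of 10 well above background), and neuron markers to 31.5 and 29.5 against 32.2 and 35.3 (8 of 10). At the adjusted p 4 oligodendrocyte markers were higher and 4 lower (median 0.027), and 5 neuron markers were higher and 2 lower (median 0.28). With spike-in scaling 1 microglia, 0 oligodendrocyte and 1 neuron marker were higher and 6, 9 and 6 lower. Of all genes, 37.1% were higher and 27.8% lower, and 3.84% and 83.3% with spike-in scaling. The part of these cell types in the values of the mitochondrial ribosomal protein genes was not tested.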

How the data were processed

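Total RNA of 4 AEC samples (2 untreated, 2 after 15 h of OGD) was labeled with Cy3 and hybridized to single-color Agilent arrays by the authors. The deposited unit is intensity: each spot has a processed signal, which Agilent Feature Extraction (version 11.5.1.1 in the submitters' processing notes) had corrected for background, array by array, and arrays were not yet scaled to each other. The series table holds the same values (largest difference 0). From the deposited intensity, log2 was taken, control and outlier spots were left out, spots of a probe were averaged, and each array's 75th percentile was subtracted. Probes well above background (at least a fraction of 0.5 of spots) on all arrays of either group were tested, 28254 in all, using limma 3.58.1 (R 4.3.3, lmFit then eBayes), with Benjamini–Hochberg adjustment at 0.05. The brightest tested probe stood for a gene. Pairs of probes were compared on the difference of their log2 values, a test added after the data had been seen and repeated with quantile normalization and normexp correction. Arrays have no read depth, and their number limits the precision; between 64.5% and 73.7% of spots were well above background and 0 were saturated.

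The members and all gene lists were chosen with earlier results of these data known. Genes given in full were the 6 highest and the 6 lowest, any past 10-fold (none), any with probes called in opposite directions, and fixed genes (the stalk, the S18 paralogs and *Mrps12*). *Mrpl46*, *Mrps11*, the probe pairs, the printed promoters and the search for AATAAA were chosen after their values were seen. Same-numbered arrays did not deviate together (correlation −0.057), so the numbers were not taken as pairs. The alternatives were the methods' t-test, a trended robust prior, a block for the replicate number, normexp correction (offset 50), quantile, median, above-background 75th-percentile, spike-in (9 of 10 probes used) and members' median scaling, other filters, outliers kept, the series table, the mean over probes and each array left out. Promoters came from RefSeq (GRCm38.p6), and gene names and probe positions (mm9) from the files. The fits were tested on simulated data. Summaries used pandas 2.3.3 and scipy 1.17.1 under Python 3.11.15, and plots matplotlib 3.10.9.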

Additional observations from a re-analysis of the deposited data

How the results depend on the processing

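The number of members called higher, 32, was 11 with quantile normalization, 19 with the 75th percentile of probes above background on all arrays, 0 with spike-in scaling and 18 with the members' own median as zero, an alternative chosen after seeing the data. The number called lower, 8, was 13 with a trended robust prior, 14 with normexp correction, 26 with quantile normalization, 15 with the 75th percentile of probes above background on all arrays, 77 with spike-in scaling, 14 with the mean over the probes of a gene and 15 with the members' median as zero. Of all genes, 28.4% were higher and 31.1% lower with quantile normalization, 3.84% and 83.3% with spike-in scaling and 60.5% and 20.8% with normexp correction. For the other scalings, filters and tests of this section the shares of all genes were not counted, so those counts cannot be set against the whole array. The members lower by at least 2-fold, 2, were 47 with spike-in scaling and 1 with the mean over probes. The median log2 fold change, 0.24, was −0.18 with quantile normalization, −1.05 with spike-in scaling, 0.085 with the 75th percentile of probes above background on all arrays and 0.17 with the mean over probes. Leaving out each array in turn gave 8 to 31 members higher, 4 to 12 lower, 0 to 1 higher and 2 lower by at least 2-fold, and a median of 0.20 to 0.27. The low counts came without an untreated array: 11 higher and 4 lower without untreated replicate 1, and 8 and 4 without untreated replicate 2. The count of 12 lower and the 1 member past 2-fold came without OGD replicate 1. The lone array of a group was then assumed to vary like the other group.

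With the replicate number as a block, 24 members were higher and 6 lower, with a median of 0.24. The other alternatives stayed within 1.5 times the 32 and 8 of the reported fit: the methods' t-test called 23 higher and 9 lower, no filter 22 and 6, the filter on all 4 arrays 39 and 12, and median scaling 25 and 6.

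Of the genes given in full, these changed sign. With spike-in scaling, *Mrps30* was at −0.32, *Mrpl13* −0.45, *Mrpl9* −0.51, *Mrpl32* −0.54, *Mrpl30* −0.56, *Mrps5* −0.57, *Mrps18a* −1.12, *Mrps18b* −0.94, *Mrpl10* −0.90, *Mrpl11* −1.10, *Mrpl12* −0.79 and *Mrpl48* −0.60. With quantile normalization, *Mrps18a* was at −0.052, *Mrps18b* at −0.12 and *Mrpl11* at −0.32, and with the mean over probes *Mrpl48* was at −0.34. Spike-in scaling subtracts only the shift of the spiked-in RNA, −0.085 on the log2 scale, where the 75th percentile moved by −1.37; the cause of the other changes was not tested. Over these genes, 314 values kept their sign and their side of the threshold, 18 lost the call and 12 gained it. With 2 arrays in each group, values near the adjusted p of 0.05 are the least settled, and signals of the dimmest second probes lie near background after OGD.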
